A study of Mus musculus with 12 samples.

Results

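The aminoacyl-tRNA synthetases are the enzymes that join each amino acid to its tRNA. The genes described here are the 37 members of this family that were chosen by symbol from the Ribo-seq table, out of 25029 genes with a name of their own. Of these, 16 with a symbol ending in 2 make the mitochondrial class and 21 the cytosolic class, in which Tarsl2, a threonyl-tRNA synthetase-like gene, is counted. In Ribo-seq, nuclease digests the RNA outside ribosomes and the protected pieces, the footprints, are sequenced and counted for each gene.

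Livers came from male C57BL/6 mice at an age of 16 weeks that had eaten a high-fat diet alone (HFD, n = 3 libraries) or a high-fat diet with lycopene (LYC, n = 3 libraries) for 8 weeks. No genetic change or other agent is named for either group, and both groups share the high-fat diet. For LYC, the label for treatment mentions the high-fat diet alone, and the titles and the paper give the lycopene. The labels state that material of the groups was pooled before the libraries were made. The paper also mentions pooling of digested samples, and it calls the libraries biological replicates. Where the libraries do not stand for separate mice, the p-values below measure only the spread between libraries.

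Cytosolic synthetases charge the tRNAs used by cytosolic ribosomes. Several of them, namely those encoded by Dars, Eprs, Iars, Kars, Lars, Mars, Qars and Rars, sit in a multisynthetase complex held together by the scaffold proteins of Aimp1, Aimp2 and Eef1e1. The mitochondrial enzymes are made in the cytosol from nuclear genes, are imported, and charge the tRNAs that read the mitochondrial genome. Kars and Gars are counted as cytosolic by their symbols, although each gene is known to encode both a cytosolic and a mitochondrial enzyme. Part of the cytosolic group is known to be induced by the transcription factor ATF4 when amino acids run short. The liver makes large amounts of secreted protein and so depends on charged tRNA.

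The 6 Ribo-seq libraries were unequal in depth. HFD1 held 2726202 reads, HFD2 4405541 and HFD3 834410, while LYC1 held 394461, LYC2 311050 and LYC3 412116. The unit is RPKM, the reads on a gene divided by its length and by the total of the library. A single read over 1 kb therefore counted for 0.227 to 1.20 RPKM in the HFD libraries and for 2.43 to 3.21 RPKM in the LYC libraries. All 7 hepatocyte markers were detected, with a summed RPKM of 38648 to 42009 in HFD and 27289 to 34730 in LYC. Apoa1, Cps1 and Tat went the other way, with every LYC library above every HFD library, and Cps1 (1.08) and Tat (1.55) were called higher on the log2 scale. The 5 cholangiocyte markers summed to 15.4 to 25.0 RPKM in HFD and 2.89 to 9.25 RPKM in LYC, mostly from Spp1. Krt19, Krt7 and Epcam were at 0 in every LYC library, but had 6, 16 and 10 reads in HFD, a rate that gives 0.842, 2.24 and 1.40 reads over the LYC libraries. The 7 Kupffer cell markers summed to 105.7 to 142 RPKM in HFD and 85.8 to 165 RPKM in LYC. Stellate and endothelial markers spanned 22.6 to 41.1 and 58.4 to 80.3 RPKM in HFD and 8.11 to 38.8 and 16.8 to 115 RPKM in LYC. The stellate marker Acta2 was at 0 in every LYC library as well, from 46 reads in HFD. That is more than Krt19, Krt7 or Epcam had, so their low rates over LYC do not carry over to it. The part of these shifts in the results below was not tested, and in whole liver fewer cells of a type and less RNA per cell cannot be told apart.

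The first question was how the genes rank among themselves in HFD livers. Lars2, the mitochondrial leucyl-tRNA synthetase, stood far above the rest at 325 ± 111 RPKM (SD, n = 3), with 448, 232 and 296 RPKM in HFD1, HFD2 and HFD3. Dars, the aspartyl-tRNA synthetase, followed at 72.3 ± 11.1 RPKM. The steps between its values show that the Dars RPKM were computed over 693 bases, the length of a short RefSeq transcript of the gene with 4 exons, whereas its longest RefSeq transcript has 2232 bases. Over 2232 bases its HFD mean would be 22.5 RPKM, which would place it behind Nars. Aars at 54.5 ± 2.54 RPKM and Tars at 53.3 ± 4.22 RPKM came next, and their libraries overlapped. Nars, the asparaginyl-tRNA synthetase, followed at 29.6 ± 4.22 RPKM and lay apart from both neighbours in the order. From Eprs at 20.4 RPKM downwards, the libraries of neighbouring genes overlapped in all but 1 case. The exception was Ears2 at 1.63 RPKM, which lay above Wars2 at 0.872 RPKM in every HFD library. This order depends on the lengths used. Over the longest RefSeq transcript Mars would be at 13.2 RPKM instead of 20.3 RPKM, and Fars2 at 2.02 RPKM instead of 16.6 RPKM.

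The class median of the HFD means was 11.6 RPKM for the cytosolic genes and 4.00 RPKM for the mitochondrial genes. For 13 amino acids the set holds a pair of genes, 1 per compartment. In 9 of these 13 pairs the 3 HFD libraries of the cytosolic gene lay above those of its mitochondrial partner. The ratio of the HFD means was 35.2 for Mars over Mars2 and 12.5 for Aars over Aars2. The order was turned for Iars, at 0.767 times Iars2, and for Lars, at 0.0225 times Lars2. Cars against Cars2 and Yars against Yars2 overlapped. Only 17 of the 37 genes had a length within 1% of their longest RefSeq transcript. The RPKM of Mars, Vars, Aars2 and Iars2, among others, rest on shorter transcripts. With each gene taken over its longest transcript, chosen after seeing the data, the cytosolic gene lay above in 8 of 13 pairs, as Vars then overlapped Vars2. The ratio was then 23.0 for Mars over Mars2 and 19.4 for Aars over Aars2, and Iars overlapped Iars2 at 0.983.

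The main comparison was LYC against HFD. A fold change is given as log2 of RPKM divided by a TMM scaling factor, plus 1, and a call needed an absolute log2 fold change above 1 with an unadjusted p below 0.01. Since the scaling factors were lower in LYC (0.798 to 1.00) than in HFD (1.03 to 1.27), and since the fit averages log values after adding 1, a fold change is not the ratio of the RPKM printed beside it, and for Aars, Lars and Vars it has the opposite sign. Of the 37 genes, 25 passed the filter on low reads, 19 cytosolic and 6 mitochondrial, and 12 could not be tested. In LYC, 5 were called higher, namely Dars, Hars, Farsb, Eprs and Nars, and none was called lower. All 5 are cytosolic, and among the 6 mitochondrial genes tested no call was made in either direction. Over all 5522 genes tested, 392 were called higher (7.1%) and 363 lower (6.57%), so the background for the 5 of 25 is 7.1%. At an adjusted p below 0.05, at any fold, the same 5 genes passed, against 12% of all genes.

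**Figure D1:**
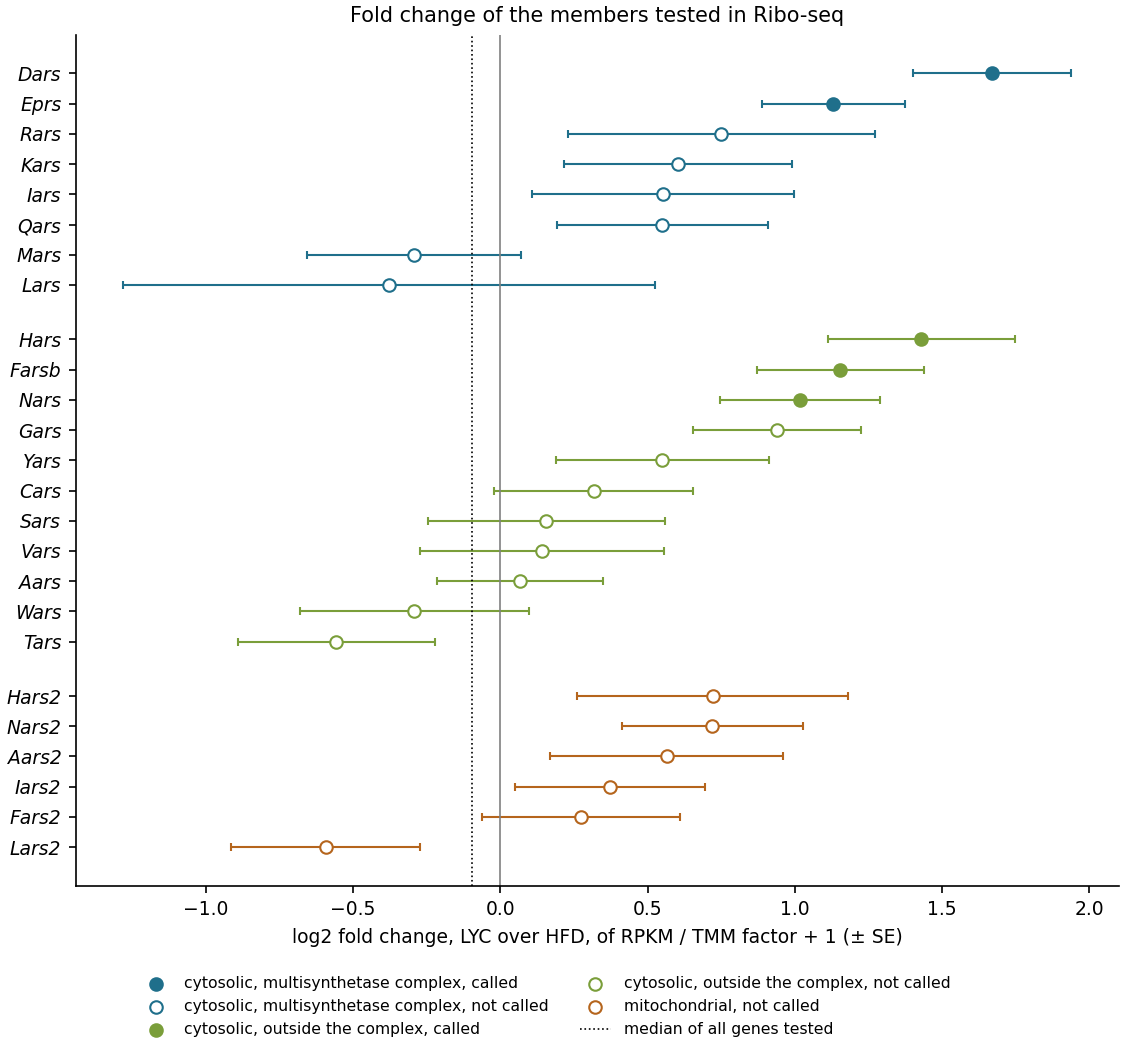
Log2 fold change of LYC over HFD (horizontal axis, RPKM divided by the TMM factor, plus 1) with its SE for the 25 genes tested, ordered within the cytosolic multisynthetase complex, the other cytosolic genes and the mitochondrial genes. Filled points mark the 5 genes called higher, all cytosolic, and the dotted line marks the median of all genes tested at -0.10.

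Both cytosolic subgroups held called genes. In the complex, 2 of 8 genes were called (Dars and Eprs), and 3 of the 11 others tested were called (Hars, Farsb and Nars), each against the background of 7.1%. The difference between the subgroups was not tested, and the counts are too small to set them apart.

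Dars (chr1:128363707-128417416, minus strand, GRCm38) had the largest change of the family in the main comparison. Hars lay above it with the gene length trend removed (1.40 against 1.26, and Eprs at 1.34) and without LYC2 (1.67 against 1.46). The HFD libraries held 66.2, 85.2 and 65.7 RPKM, from 125, 260 and 38 reads. The LYC libraries held 168, 283 and 140.1 RPKM, from 46, 61 and 40 reads. Every LYC library lay above every HFD library, and LYC2 was the highest. On the log2 scale the change was 1.67 (SE 0.27, adjusted p = 0.00702), and it was 1.46 to 1.86 when any 1 library was left out. Dars was called in all 16 fits that were run.

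Hars, the histidyl-tRNA synthetase (chr18:36766528-36783205, minus strand), lay at 6.27, 9.13 and 7.83 RPKM in HFD and 21.7, 14.5 and 19.5 RPKM in LYC. The groups did not overlap, and LYC1 was the highest library. This is a log2 fold change of 1.43 (SE 0.32, adjusted p = 0.0233), and Hars too was called in all 16 fits. When single libraries were left out its adjusted p reached 0.0989 (without HFD1). The LYC values rest on 17, 9 and 16 reads. Only 2 of the 3 HFD libraries reached the read filter, so Hars entered the test through its LYC libraries. Its neighbour Hars2, the mitochondrial histidyl enzyme, overlaps the first bases of Hars head to head on the opposite strand (chr18:36783202-36792562) and was not called, at 0.72 (SE 0.46).

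Eprs encodes the glutamyl-prolyl-tRNA synthetase, a fusion of both enzymes in a single protein (chr1:185361417-185428360, plus strand, 32 exons). It lay at 17.9, 23.5 and 19.8 RPKM in HFD and at 33.6, 45.9 and 33.6 RPKM in LYC. The groups lay apart, and LYC2 was again the highest. Its log2 fold change was 1.13 (SE 0.24, adjusted p = 0.0200), on 203 reads in LYC and 829 in HFD. The call held without each library in turn (1.07 to 1.19), with an adjusted p of up to 0.0949 (without HFD1). It was lost without scaling (0.85) and with a pseudocount of 5 (0.99).

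Farsb encodes the beta subunit of the cytosolic phenylalanyl-tRNA synthetase, which works as a complex with the alpha subunit of Farsa. Farsb (chr1:78417958-78488897, minus strand) was at 13.9, 19.4 and 10.9 RPKM in HFD and 26.7, 33.8 and 22.0 RPKM in LYC. The 3 LYC libraries lay above the 3 HFD libraries. Its log2 fold change was 1.15 (SE 0.28, adjusted p = 0.0324). The call was lost without HFD1 (1.16, adjusted p = 0.107) and without HFD3 (1.00, adjusted p = 0.145), and, as for Eprs, without scaling (0.87) and with a pseudocount of 5 (0.96). Farsa was at 3.58, 4.95 and 4.81 RPKM in HFD and 5.82, 3.69 and 0 RPKM in LYC. It was too low to test, with 4, 2 and 0 reads in LYC, so the 2 subunits were not compared.

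Nars lay closest inside the fold threshold (chr18:64499655-64516515, minus strand). It was at 24.8, 32.5 and 31.7 RPKM in HFD and 56.4, 54.6 and 39.4 RPKM in LYC, with no overlap. A log2 fold change of 1.02 (SE 0.27, adjusted p = 0.0436) was found. It was no longer called without HFD1 (0.93), HFD2 (0.95) or LYC1 (0.86), without HFD3 (1.10, adjusted p = 0.117), without scaling (0.73) or with a pseudocount of 5 (0.92). With a replicate block it was not called either, at the same fold change (adjusted p = 0.0700).

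Gars, the glycyl-tRNA synthetase (chr6:55038001-55079504, plus strand), lay just outside the fold threshold. It had 15.0, 16.6 and 9.03 RPKM in HFD and 19.1, 22.9 and 22.3 RPKM in LYC. The libraries did not overlap, and the log2 fold change of 0.94 (SE 0.28, adjusted p = 0.0642) was not a call.

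**Figure D2:**
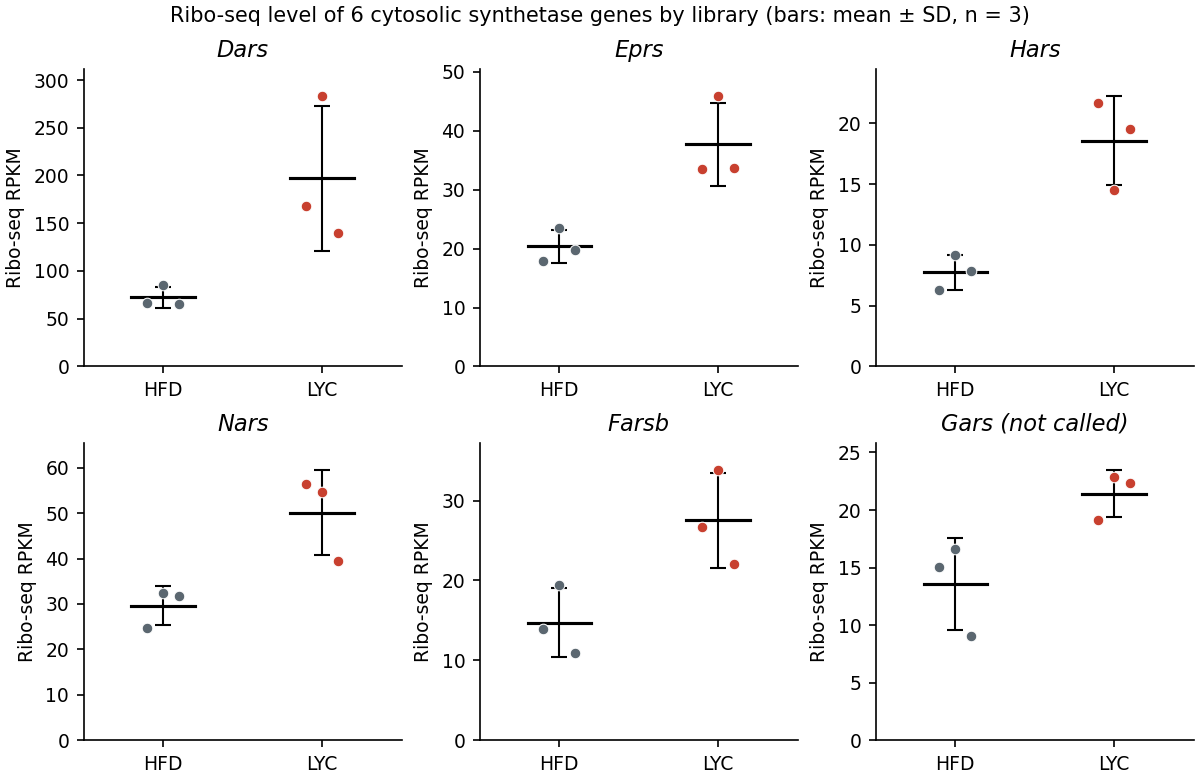
Ribo-seq RPKM (vertical axis) of the 5 called genes and of Gars in the 3 HFD and 3 LYC libraries (points), with mean and SD. In all 6 panels the 3 LYC points lie above the 3 HFD points, and the LYC spread is widest for Dars, at 140.1 to 283 RPKM.

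Among the 19 cytosolic genes tested, 15 had a fold change above 0 (45.2% of all genes tested) and 4 below 0. Their median was 0.55, against -0.10 over all genes tested. Without scaling the median of all genes was -0.36 and the cytosolic median 0.28. Dars and Hars were the only members called then, 2 of 25, against 4.11% of all genes called higher and 12% called lower. The non-overlapping genes were 6 of 19 with LYC above HFD (the 5 called and Gars, background 10%) and 1 of 19 with LYC below HFD (background 28.2%).

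That 1 gene was Tars, the threonyl-tRNA synthetase (chr15:11383663-11399658, minus strand). Tars lay at 51.1, 50.7 and 58.2 RPKM in HFD and at 29.8, 45.1 and 18.4 RPKM in LYC. At -0.56 (SE 0.33, adjusted p = 0.292), its log2 fold change did not pass the test. The other 12 cytosolic genes tested overlapped between groups. Their fold changes ran from -0.38 for Lars to 0.75 for Rars, and none was called. Aars, the alanyl-tRNA synthetase and among the best covered of the family with 1626 reads in HFD and 196 in LYC, was at 54.5 ± 2.54 RPKM in HFD and 49.2 ± 21.1 RPKM in LYC, a log2 fold change of 0.07 (SE 0.28). Rars was at 20.2, 16.6 and 4.55 RPKM in LYC, and without LYC3 it was called higher. Lars had no read in LYC1 and 17 and 16 reads in LYC2 and LYC3, which gives its SE of 0.90.

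LYC2 was the highest LYC library in 13 of the 21 cytosolic genes (61.9%), against 43.9% of all genes tested. With LYC2 left out, the 5 calls stood.

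The mitochondrial genes were read more thinly. The median number of reads per gene over the 3 LYC libraries was 9.5, against 44 for the cytosolic genes, and 10 of 16 could not be tested. Nars2, the mitochondrial asparaginyl enzyme, had the only tested set with LYC above HFD, at 3.91, 3.81 and 3.19 RPKM in HFD and 6.08, 5.14 and 5.17 RPKM in LYC. Its log2 fold change of 0.72 (SE 0.31, adjusted p = 0.152) was not called. No HFD library of Nars2 reached the read filter, so it entered the test through LYC alone. Hars2 (0.72, SE 0.46), Aars2 (0.56, SE 0.39), Iars2 (0.37, SE 0.32) and Fars2 (0.27, SE 0.34) overlapped between groups. The median of the 6 mitochondrial genes tested was 0.47, and over all 16 without the filter it was -0.25, so its sign depends on the filter. It also turned without HFD2, to -0.31 over 2 genes, and was 0.04 without LYC3. In the 5 pairs with both genes tested (Aars, Hars, Iars, Lars and Nars with their partners), the cytosolic fold change was the larger in 4. The difference between the classes was not tested.

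Pars2 and Wars2, the mitochondrial prolyl and tryptophanyl enzymes, had no read in any LYC library. In HFD they had 29 and 34 reads, at 1.80 ± 0.932 and 0.872 ± 0.287 RPKM. A count of 0 over the LYC group allows up to 3 reads, which over its 1117627 reads is 1.20 RPKM for Pars2 and 0.612 RPKM for Wars2. The pooled HFD rate would have given 4.07 and 4.77 reads there, so the counts of 0 set no firm fold. Both limits lay above the lowest HFD library, at 0.817 RPKM for Pars2 and 0.546 RPKM for Wars2. In the fit without the filter on low reads, Pars2 was called lower and Wars2 was not. Ears2, the mitochondrial glutamyl enzyme, had 2, 0 and 1 reads in LYC against 87 over the HFD libraries, and its LYC libraries lay below its HFD libraries. The 3 HFD libraries held 40, 49 and 14 reads of Cars2 and the LYC libraries 0, 4 and 0, and it was called lower only where LYC2, the library with its reads, was left out. Farsa, Tarsl2, Mars2, Rars2, Sars2, Tars2, Vars2 and Yars2 were also untested and overlapped between groups, with 2 to 14 reads each over the LYC libraries.

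Summed RPKM showed how much each class took in a library. The 21 cytosolic genes summed to 348, 426 and 377 RPKM in HFD and to 515, 746 and 427 RPKM in LYC. The groups touched without overlap, since LYC3 at 427 lay just above HFD2 at 426. The mean was 384 ± 39.5 RPKM in HFD and 562 ± 165 RPKM in LYC. Without Dars the sums were 311 ± 29.7 and 365 ± 89.5 RPKM, and the groups overlapped. With Dars counted over its longest RefSeq transcript they were 334 ± 32.6 and 426 ± 113 RPKM and overlapped too, since LYC3 at 330.1 lay below HFD2 at 367. The 15 mitochondrial genes other than Lars2 summed to 78.6 ± 10.4 RPKM in HFD and 76.2 ± 13.4 RPKM in LYC, with overlap. Of this, Fars2, the mitochondrial phenylalanyl enzyme, made 16.6 ± 3.33 RPKM in HFD, computed over 1263 bases where its longest RefSeq transcript has 10358. Over the longer length the sums were 64.0 ± 7.81 and 60.5 ± 5.44 RPKM, again with overlap. With Lars2 the mitochondrial sum was 404 ± 105 and 245 ± 19.7 RPKM, since Lars2 alone made 71.9% to 85.9% of it in HFD and 66.3% to 72.6% in LYC.

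**Figure D3:**
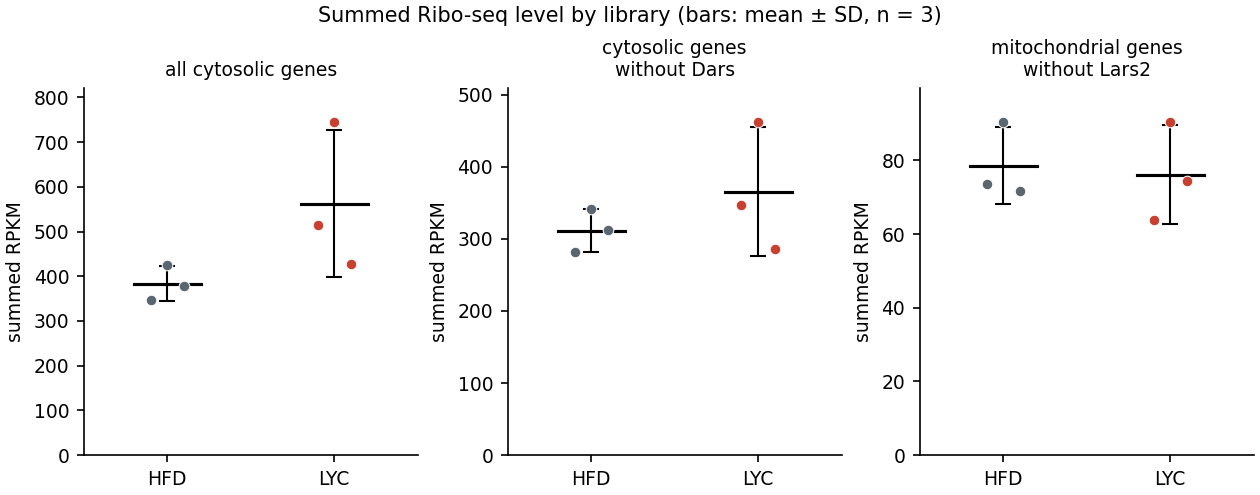
Summed Ribo-seq RPKM (vertical axis) by library (points, with mean and SD, n = 3) for the 21 cytosolic genes, for the 20 without Dars, and for the 15 mitochondrial genes without Lars2. The groups overlap in the panels without Dars and without Lars2, and LYC2 stands highest for all cytosolic genes at 746 RPKM.

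The scaffold and the amino acid response genes were looked at beside the enzymes. All 3 scaffold genes were too low to test. Aimp1 was at 8.56 ± 2.60 RPKM in HFD and 16.5 ± 7.54 RPKM in LYC, and Aimp2 at 5.17 ± 2.84 and 14.7 ± 6.80 RPKM, both with overlap. Eef1e1 was at 5.65, 4.81 and 4.61 RPKM in HFD and 9.76, 12.4 and 21.0 RPKM in LYC, without overlap, on only 4, 4 and 9 LYC reads. Of 27 amino acid response genes, 7 were tested and none was called higher or lower, where 7.1% and 6.57% of all genes were. Their fold changes ran from -0.73 to 0.86, and Shmt2 at -0.73 was the only one without overlap, with LYC below HFD. Atf4 itself was at 28.6, 28.2 and 31.9 RPKM in HFD and 16.1, 9.30 and 33.7 RPKM in LYC, a log2 fold change of -0.46 (SE 0.44, adjusted p = 0.516). Asns, the asparagine synthetase, had 1 read in HFD and 2 in LYC. None of the 2 tested of 8 genes of tRNA proofreading and selenocysteine tRNA synthesis was called, and none of the 4 tested of 13 genes that process or modify mitochondrial tRNA, counts too small to set against the same background.

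ATF4 binds an amino acid response element, so its core was searched in the 250 bases before the annotated start of 28 members with a RefSeq promoter (GRCm38.p6). The core TGATGNAA on either strand was found in 3 of 14 cytosolic genes (Aars, Gars and Tars) and in 0 of 14 mitochondrial genes, against 3.45% of 32851 promoters. The E-box CACGTG was found in Iars, Aars and Farsb, against 6.02% of all promoters. Of the called genes, Dars, Eprs and Farsb had a promoter to search and held no core, while Hars and Nars had none to search. The sequences of Gars and Tars are shown as carriers of the core whose fold changes had opposite signs, and those of Dars and Farsb as called genes. The windows of Aars, the third carrier, and Eprs overlap an annotated exon and are not shown. Capitals mark the core or the E-box, and each reads 5′ to 3′ towards the start of its gene. The windows are chr6:55037751-55038000 (plus) for Gars, chr15:11399659-11399908 (minus) for Tars, chr1:78488898-78489147 (minus) for Farsb and chr1:128417417-128417666 (minus) for Dars.
Gars: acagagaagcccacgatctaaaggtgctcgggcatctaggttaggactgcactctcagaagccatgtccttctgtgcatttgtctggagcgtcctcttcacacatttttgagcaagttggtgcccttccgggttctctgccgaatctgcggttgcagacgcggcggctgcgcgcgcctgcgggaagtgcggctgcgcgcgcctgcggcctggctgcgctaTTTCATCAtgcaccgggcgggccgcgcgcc
Tars: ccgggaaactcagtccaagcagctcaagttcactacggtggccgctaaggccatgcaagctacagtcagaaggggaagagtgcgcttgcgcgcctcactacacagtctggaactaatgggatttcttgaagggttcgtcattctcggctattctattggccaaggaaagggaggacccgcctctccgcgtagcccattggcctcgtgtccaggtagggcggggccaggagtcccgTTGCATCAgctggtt
Farsb: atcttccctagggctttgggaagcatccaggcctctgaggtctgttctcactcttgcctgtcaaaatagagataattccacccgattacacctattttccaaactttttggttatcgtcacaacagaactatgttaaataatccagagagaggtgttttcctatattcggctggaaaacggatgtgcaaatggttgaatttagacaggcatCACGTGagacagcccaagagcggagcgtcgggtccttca
Dars: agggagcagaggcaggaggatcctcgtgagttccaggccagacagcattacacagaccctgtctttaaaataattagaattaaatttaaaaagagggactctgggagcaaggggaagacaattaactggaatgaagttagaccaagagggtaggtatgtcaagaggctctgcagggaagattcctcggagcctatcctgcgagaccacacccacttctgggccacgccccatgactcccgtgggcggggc

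A match is a run of letters and not a shown binding site, and its absence says only that these letters are not in the window. Gars had a log2 fold change of 0.94 and Tars of -0.56, while Aars, the other gene with the core, was at 0.07. None of these 3 was called, and how the core relates to the calls was not tested.

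By the plan, Lars2 was followed also into the second deposited table, labelled RNA-seq, and its values there go the other way. In Ribo-seq, Lars2 (chr9:123366927-123462675, plus strand, 21 exons) went from the HFD values given above to 169, 178 and 161 RPKM in LYC. All LYC libraries lay below all HFD libraries, as they did for 28.2% of all genes tested. A log2 fold change of -0.59 (SE 0.32, adjusted p = 0.241) was not a call, and it ran from -0.95 to -0.30 when single libraries were left out. The exact permutation test of the RPKM, two-sided, gave p = 0.1, the smallest that 3 against 3 libraries allow.

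In the table labelled RNA-seq, Lars2 was the gene with the most counts in every library. Its counts were 315897, 90231 and 445167 in the HFD libraries a, b and c and 252489, 234353 and 246680 in the LYC libraries a, b and c. The letters follow the order of the columns, since their names do not tie them to single samples. Lars2 took 6.68%, 11.2% and 15.0% of all counts in HFD. In LYC it took 37.5%, 40.3% and 35.9%. The share was higher in 3 of 3 LYC libraries, at 37.9% ± 2.21 against 10.9% ± 4.15 (SD, n = 3), with an exact two-sided permutation p of 0.1, again the smallest possible. Computed from the counts over the same 4237 bases as in Ribo-seq, its level was 25832 ± 9783 RPKM in HFD and 89386 ± 5210 RPKM in LYC. By edgeR's quasi-likelihood test the log2 fold change was 2.84 (SE 0.81, adjusted p = 0.0226), where 16.6% of 5921 genes were called either way. With a replicate block it was 2.95 (adjusted p = 0.0523) by the numbers in the column names and 2.94 (adjusted p = 0.00144) by the numbers of the matched Ribo-seq libraries, and called in both. With total counts in place of TMM it was 1.79, also called, which is the scale of the RPKM above. Without HFD library b it was 2.81 and no longer called (adjusted p = 0.0806), and its adjusted p ran from 4.16e-13 to 0.0806 over the alternatives.

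**Figure D4:**
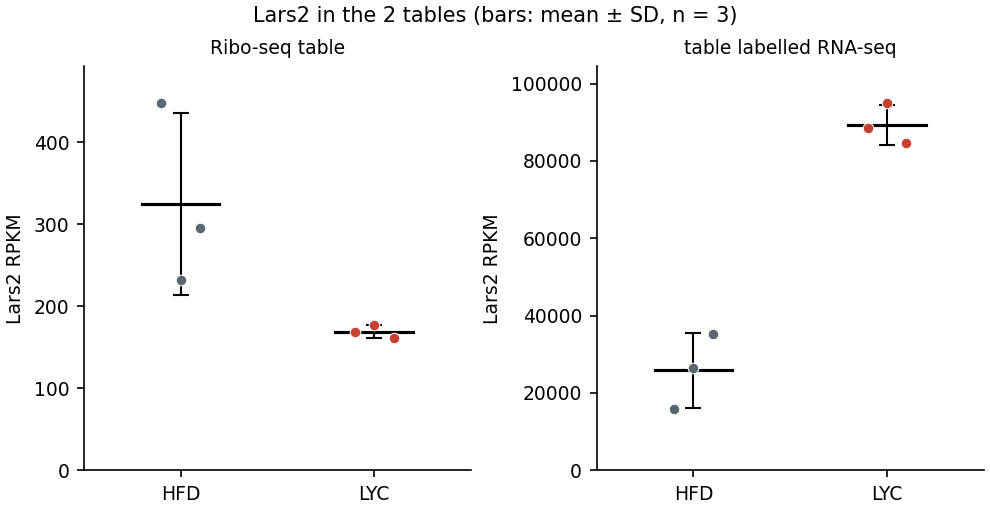
Lars2 RPKM (vertical axes, of different scale) in the Ribo-seq table and in the table labelled RNA-seq, for 3 HFD and 3 LYC libraries (points, with mean and SD). LYC lies below HFD in the first, at 161 to 178 RPKM, and above HFD in the second, at 84716 to 95006 RPKM.

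The 2 tables are not independent measurements. Reads were recovered for each Ribo-seq library and compared gene by gene with each library of the second table, over genes with 10 or more reads in either. The counts were identical for 72.6% to 73.4% of genes between each LYC Ribo-seq library and 1 library of the second table, and for 14.8% to 32.9% in the best HFD pairs. Between all other pairs at most 2.57% were identical. The LYC counts of the second table had chosen the length of 456 genes and removed a shared divisor for 259. Identity in LYC was favoured for these genes, none of which is a synthetase gene. Over these matched LYC pairs, 102 of 108 counts of the 36 synthetase genes other than Lars2 were identical, and the others differed by 1 read. In HFD, 30 of 108 were identical and the largest difference was 27 reads. Aars, for example, had 54, 85 and 57 reads in LYC in both tables.

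Lars2 was the exception. It had 282, 234 and 281 reads in LYC in the Ribo-seq table, and its count in the matched libraries was 895, 1002 and 878 times as large. In the matched HFD libraries it was 73.1 to 86.3 times as large. In LYC the added Lars2 counts made 86.3% to 90.3% of the difference between the totals of the matched libraries. In HFD they made 95.8% and 176% of it for libraries a and c, whereas library b held 805557 counts in all, fewer than the 834410 reads of HFD3, although its Lars2 count was higher. No value for messenger RNA apart from the footprints was therefore taken from the second table for any synthetase gene, and translational efficiency was not computed.

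**Figure D5:**
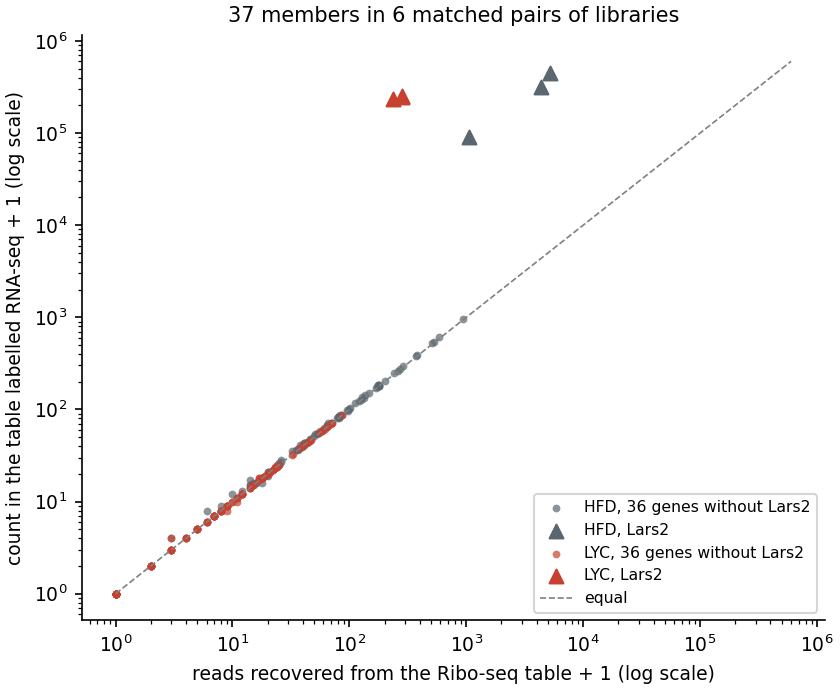
Reads recovered from the Ribo-seq table (horizontal axis) against counts in the table labelled RNA-seq (vertical axis), both plus 1 on log scales, for the 37 genes in 6 pairs of libraries matched by identical counts. The 36 genes other than Lars2 lie on or beside the line of equality, and the 6 Lars2 points lie 73.1 to 1002 times above it.

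The Lars2 transcript holds a stretch that also occurs elsewhere in the genome. It spans 398 bases at chr9:123461792-123462189 in the last of 21 exons and begins 114 bases after the end of the coding sequence, in the part of the messenger RNA that is not translated. Parts of it matched 16 other places at 90.3% to 98.8% identity over 80 bases or more. Reads from such copies can be placed on more than 1 gene, and how they were placed in each table was not tested. Of the called genes, the transcripts of Dars (the short one), Eprs, Hars and Nars had no such copy elsewhere, and Farsb had 12. Among the mitochondrial genes too low to test, Ears2 had 64019 such copies, Wars2 2026 and Vars2 50. The part of these copies in the reads of those genes was not tested.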

How the data were processed

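Liver Ribo-seq libraries (3 HFD, 3 LYC) and the table labelled RNA-seq (3 and 3) were used, grouped by title. Per the paper, raw reads went through cutadapt and bowtie2, were placed on the mouse genome GRCm38/mm10 by STAR, and were quantified by FANSE2; versions and annotation release are not given in the sources used here. The authors deposited RPKM for Ribo-seq and whole-number counts for the second table. Its 6 further per-library columns were not used.

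Reads behind the deposited Ribo-seq RPKM were recovered from the steps between values (within 0.01 reads). Over the 9784 genes with a single RefSeq transcript length, 91.4% to 94.9% of a library's values were then whole. Of 15749 genes above 0, a RefSeq length gave whole reads in all libraries for 14178, and a fitted length was used for 1571. The LYC counts of the second table chose between lengths for 456 genes and removed a shared divisor for 259, none of them a synthetase gene. In a simulation of 3000 genes 97.9% of values were right. It started from the recovered reads and used their true LYC sums in place of the second table, which favours this share. Intervals and floors of 3 reads cover counting error only.

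RPKM were divided by TMM factors, 1 was added, and log2 values were fitted with limma (trend) over all 5522 genes that edgeR's filterByExpr kept (19.9 CPM in at least 3 libraries). Tests were two-sided, with Benjamini-Hochberg adjustment over all genes. The threshold of p below 0.01 is that of the paper's results, while its methods give 0.001, tried as an alternative. Planned as RPKM tests, these were set beside edgeR and DESeq2 on the recovered reads. In simulated data of 5873 genes limma called 86 of 100 genes with a log2 fold of 1.5 and 99 of 100 with 2, and 49 of 5673 unchanged genes. The changed genes were drawn from well covered genes and the spread between libraries was preset. These rates therefore do not carry over to genes with few reads, such as Hars and most mitochondrial genes in LYC. For the counts of the second table the quasi-likelihood test of edgeR was used. Other alternatives were scaling, pseudocount, filter, threshold, a replicate block, a length trend and leaving out each library.

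Genes described with all values were those called, those whose libraries do not overlap (at most 5 in each direction, tested genes) and Lars2; Gars and Nars2 fall under this rule by their fold changes, and Farsa, Rars, Lars, Cars2, Fars2, Pars2 and Wars2 were named after their values were seen. Members, lists and tests were chosen with earlier results of these data known. Positions are from the RefSeq annotation of GRCm38, and copies were searched with blastn 2.17.0 at 90% identity over 80 bases. Models ran in edgeR 4.0.16, limma 3.58.1 and DESeq2 1.42.0 under R 4.3.3. Other steps ran in pandas 2.3.3, numpy 2.4.6, scipy 1.17.1 and matplotlib 3.10.9 under Python 3.11.15.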

Additional observations from a re-analysis of the deposited data

Results flagged for a closer look

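Lars2 had fold changes of opposite sign in the 2 deposited tables. Its log2 fold change of LYC over HFD was -0.59 in the Ribo-seq table and was not called in any of 16 fits. Every LYC library lay below every HFD library there, as for 28.2% of all genes tested. In the table labelled RNA-seq the log2 fold change was 2.84 (1.79 with total counts in place of TMM scaling). By RPKM, every LYC library lay above every HFD library in that table. The difference between the tables was not tested.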

How the results depend on the processing

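Of the members, 5 were called, and the same 5 were called with median-of-ratios scaling, a pseudocount of 0.5, the length trend removed, edgeR and DESeq2. There were 2 calls without scaling, 2 with a pseudocount of 5 and 1 (Dars) at p below 0.001, the threshold in the paper's methods, and 3 to 6 when single libraries were left out. Called lower was 1 member without the filter (Pars2), and 0 to 1 in the fits without a library (Cars2 without LYC2). The cytosolic median was 0.28 without scaling. The mitochondrial median was -0.25 without the filter and ran from -0.31 to 0.54 with single libraries left out, over 2 to 10 genes. The ratio of the summed mitochondrial RPKM, LYC over HFD, was 0.607 with Lars2 and 0.969 without it; the cytosolic ratio was 1.47, 1.17 without Dars and 1.28 with Dars over its longest RefSeq transcript, and Fars2 over its longest transcript gave 0.945 for the mitochondrial genes without Lars2, alternatives chosen after seeing the data. The log2 fold change of Lars2 in the table labelled RNA-seq was 1.79 with total counts in place of TMM, against 2.84, and 2.52 to 3.22 with single libraries left out. Where no cause is named here, the cause was not tested.

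Same-numbered HFD and LYC libraries share only a number, and their deviations from the group means had correlations of 0.12, 0.02 and -0.0026. With the replicate block 4 members were called, as Nars fell short (adjusted p = 0.0700, against 0.00213 to 0.156 over its alternatives). In the table labelled RNA-seq the numbers in the HFD column names differ from those of the Ribo-seq libraries with the same counts (1, 2 and 3 against 2, 3 and 1). With the replicate block Lars2 was called under both numberings (2.95 and 2.94); the second was chosen after seeing the data.

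Over all genes, 392 were called higher and 363 lower. The counts were 440 and 715 without the filter (15749 genes), 227 and 665 without scaling, 327 and 221 with a pseudocount of 5, and 278 to 559 and 148 to 708 with single libraries left out. In the table labelled RNA-seq, 985 of 5921 genes were called, against 2894 with total counts in place of TMM and 1633 without the filter. With 9 to 17 reads of Hars in a LYC library and a median of 9.5 LYC reads per mitochondrial gene, depth limits most of what can be said of the mitochondrial class.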
